A study of Mus musculus with 9 samples.

Results

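The genes described here encode the proteins that carry glucose into the cell, split it to pyruvate, convert pyruvate to lactate and export it, and run the pentose phosphate pathway and the glycerol phosphate shuttle. They were taken by gene symbol, as a list of 42 symbols, and all 42 were found among the 33212 rows of the count table. The 4 tested libraries came from αTC1 cells kept for 7 days with 4 µM EPZ011989, and the 5 libraries they were set against came from αTC1 cells kept for 7 days with DMSO, the solvent. αTC1 is an established mouse cell line that makes glucagon, the hormone of pancreatic alpha cells, and both groups were grown in DMEM with a low glucose concentration (1 g/L) and 10% fetal bovine serum. EPZ011989 inhibits EZH2, the methyltransferase of the Polycomb complex PRC2. All libraries came from 1 cell line, and the labels call them biological replicates without saying whether they were separate cultures, so a p-value here covers only the variation among these libraries, which may be technical. The series title names metabolic reprogramming in the formation of beta cells from alpha cells, and the comparison of EPZ011989 with DMSO addresses the effect of the inhibitor on expression.

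Glycolysis turns glucose into pyruvate in the cytosol, and lactate dehydrogenase reduces pyruvate to lactate, which regenerates the NAD+ that glyceraldehyde-3-phosphate dehydrogenase needs. The pentose phosphate pathway branches off at glucose 6-phosphate: its oxidative arm makes NADPH, and its non-oxidative arm exchanges sugars between ribose phosphate and glycolytic intermediates. Most steps are served by paralogs with different kinetics and tissues of expression. Beta cells are known for low expression of lactate dehydrogenase A and of the monocarboxylate transporter MCT1, which moves lactate and pyruvate across the plasma membrane, and alpha cells are known to express more lactate dehydrogenase A.

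Many glycolytic genes hold the core ACGTG of the hypoxia response element, which HIF factors bind, or the E-box CACGTG, which MYC, USF and ChREBP bind. Promoter windows from RefSeq (GRCm38.p6, 250 bases before to 50 after each annotated start) matched 38 of the 42 genes, with 58 windows in all. Letters were searched on both strands, so a CACGTG also counts as an ACGTG on each strand. ACGTG stood in 23 of the 58 windows (39.7%), against 6447 of all 32851 windows (19.6%). GCGTG stood in 29 of the 58 (50.0%), against 32.4% of all windows, and CACGTG in 6 (10.3%), against 7.15%. The windows of these genes also held more CpG dinucleotides (median 16.5) than all windows did (median 7), which favours motifs that contain CG, and windows of 1 gene can overlap. Ldha and Hk1 have a pair of windows each, and the more CpG-rich one is printed. The pairs of lactate dehydrogenase and hexokinase genes are printed as examples in which 1 gene rose with EPZ011989 and its paralog did not pass the test. Slc2a3 and Slc2a1, Pfkfb3 and Pfkfb2, Fbp1 and Fbp2, Pgam2 and Pgam1, and Eno2 and Eno1 also fit that description and are not printed. The windows lie at chr7:46845554-46845853 on the plus strand for Ldha, and on the minus strand at chr6:142507908-142508207 for Ldhb, chr6:82774405-82774704 for Hk2 and chr10:62340372-62340671 for Hk1 (GRCm38.p6). Capitals mark ACGTG or GCGTG read on either strand.
Ldha: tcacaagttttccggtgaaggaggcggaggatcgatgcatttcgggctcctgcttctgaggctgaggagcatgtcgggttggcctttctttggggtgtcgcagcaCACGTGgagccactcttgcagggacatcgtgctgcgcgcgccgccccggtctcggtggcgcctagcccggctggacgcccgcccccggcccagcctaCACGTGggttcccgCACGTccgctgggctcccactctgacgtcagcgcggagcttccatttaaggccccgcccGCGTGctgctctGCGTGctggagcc
Ldhb: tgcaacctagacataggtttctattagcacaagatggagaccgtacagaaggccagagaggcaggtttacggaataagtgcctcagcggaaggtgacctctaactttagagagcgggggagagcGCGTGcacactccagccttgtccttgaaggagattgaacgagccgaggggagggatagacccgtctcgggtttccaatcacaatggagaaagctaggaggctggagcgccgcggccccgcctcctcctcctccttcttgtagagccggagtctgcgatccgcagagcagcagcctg
Hk2: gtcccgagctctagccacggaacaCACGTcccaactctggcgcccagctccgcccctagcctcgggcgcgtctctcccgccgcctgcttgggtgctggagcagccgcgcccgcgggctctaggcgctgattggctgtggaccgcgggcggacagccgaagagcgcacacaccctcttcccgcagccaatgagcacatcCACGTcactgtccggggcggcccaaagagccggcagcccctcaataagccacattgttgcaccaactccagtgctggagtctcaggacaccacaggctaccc
Hk1: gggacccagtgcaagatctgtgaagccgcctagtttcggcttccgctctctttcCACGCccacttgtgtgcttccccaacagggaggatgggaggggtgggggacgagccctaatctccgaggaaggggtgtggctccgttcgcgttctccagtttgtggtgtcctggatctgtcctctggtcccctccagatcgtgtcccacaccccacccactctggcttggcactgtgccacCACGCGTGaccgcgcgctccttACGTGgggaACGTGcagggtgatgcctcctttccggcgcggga
The printed Ldha window held 5 matches to ACGTG, of which 2 CACGTG sequences give 4, and 2 to GCGTG, and the other Ldha window (starting at base 46846832) held 0 and 2. The Ldhb window held 0 and 1. The Hk2 window held 2 matches to ACGTG and 0 to GCGTG, the printed Hk1 window 2 and 3, and the other Hk1 window (starting at base 62379859) 0 and 0. Pairs that are not printed differed from this. The windows of Eno2, Fbp1 and Pgam2, which rose, held 0 matches to ACGTG and 0 to GCGTG. Those of their paralogs, which did not pass, held 0 and 2 (each Eno1 window), 2 and 0 (Fbp2) and 1 and 2 (Pgam1). A match describes these letters and is not evidence of binding.

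Libraries held 60274140 to 74651782 deposited counts. The first principal component of all genes (58.0% of the variance) separated the groups, and EPZ011989 libraries 2 and 4 lay at opposite ends of the second (10.9%). They also differed by transcript length: in library 2 the median gene with under 2 kb of exon lay 0.18 below its group mean on the log2 scale and the median gene with at least 5 kb lay 0.18 above, and in library 4 these medians were 0.20 above and 0.14 below. Alpha cell markers were present in every library, with a summed level of 19154 to 26112 CPM (the usual depth-scaled count, with TMM factors) with EPZ011989 and 23111 to 25492 CPM with DMSO. Fibroblast markers summed to 33.1 to 44.3 CPM with EPZ011989 and 7.31 to 10.2 CPM with DMSO, with 5 of 7 tested (of 11 listed) higher and Dcn, Lum and Acta2 at or under the floor of 12 counts in every library. Muscle markers summed to 2.15 to 3.35 CPM with EPZ011989 and 0.929 to 1.18 CPM with DMSO, with 0 of 3 tested (of 6 listed) past the threshold, Myog at 0 and Ckm and Myh1 at or under the floor. Endothelial markers summed to 0.674 to 1.551 CPM with EPZ011989 and 0.180 to 0.427 CPM with DMSO (1 of 2 tested higher, of 6 listed; Tek and Emcn at or under the floor), and leukocyte markers to 5.29 to 6.82 CPM with EPZ011989 and 1.52 to 2.25 CPM with DMSO (1 of 3 tested higher, of 6 listed; Ptprc and Csf1r at or under the floor). Ductal markers summed to 32.4 to 36.7 CPM with EPZ011989 and 19.4 to 25.2 CPM with DMSO (1 of 4 tested higher and 1 lower, of 6 listed; Cftr at 0). Beta cell markers summed to 62.0 to 74.2 CPM with EPZ011989 and 59.95 to 63.7 CPM with DMSO (3 of 5 tested higher and 1 lower, of 8 listed; Ins1 and Pdx1 at 0, Slc2a2 at or under the floor). Most of that sum was Nkx6-1 (44.3 CPM with EPZ011989, 39.9 CPM with DMSO) and G6pc2 (16.9 and 20.5 CPM). The 3 that rose averaged at most 4.85 CPM in either group. Hepatocyte markers, led by Ttr, which alpha cells also express, summed to 943 to 1672 CPM with EPZ011989 and 1406 to 1787 CPM with DMSO (0 of 4 tested called, of 5 listed; Tat at or under the floor). The part of these markers in the results was not tested. In RNA from whole cultures, fewer cells of a type and less RNA per cell cannot be told apart.

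Of the 42 genes, 41 passed the filter on low counts, 9 were higher and 3 lower with EPZ011989 at an adjusted p under 0.05, and 29 did not pass (edgeR quasi-likelihood test, Benjamini-Hochberg adjustment over 14754 genes). Over all genes tested, 16.2% were called higher and 7.96% lower in the same comparison, so the 9 of 41 higher (22.0%) and 3 of 41 lower (7.32%) lay near the background. The genes that rose were Slc2a3, Hk2, Pfkfb3, Pfkfb4, Fbp1, Pgam2, Eno2, Eno3 and Ldha, and those that fell were Aldoc, Rpia and Rpe. The median log2 fold change of the 41 genes was 0.12, against 0.03 over all genes. Of the genes called, Hk2, Pgam2 and Eno3 were at least 2-fold higher and none was at least 2-fold lower; both conditions were met by 8.69% of all genes tested in the higher and 0.291% in the lower direction. No EPZ011989 library overlapped the DMSO range for 12 of the 41, with 8 above it and 4 below (Pgam1 among the 4), where 16.1% and 8.77% of all genes were.

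**Figure D1:**
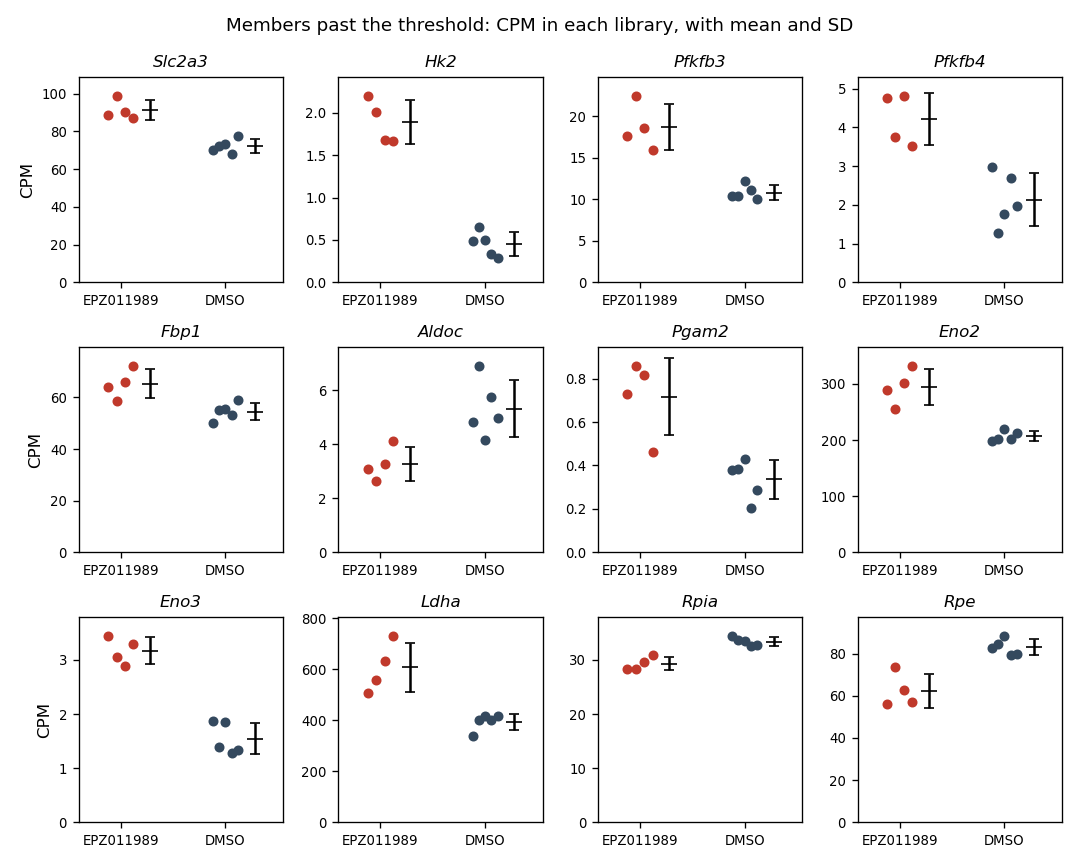
CPM of the 12 genes past the threshold in each library, with EPZ011989 (n = 4, left) and DMSO (n = 5, right) in each panel, and the mean and SD as bars. Every panel starts at 0, and only in the Fbp1 panel do the groups overlap, with the lowest EPZ011989 library at 58.7 CPM and the highest DMSO library at 59.0 CPM.

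The calls differed with the level of the gene. Of the 25 genes that averaged 50 CPM or more, 4 were higher and 1 was lower, while of all 4860 tested genes at that level 5.78% were higher and 13.8% lower. Of the 16 tested genes under 50 CPM, 5 were higher and 2 lower, against 21.3% and 5.06% of 9894. Among the 25 abundant genes, 19 had their lowest EPZ011989 value in library 2 and their highest in library 4. The same order held for 39.9% of all 4860 genes at that level, and for 84.0% of the 482 with under 2 kb of exon. Of the 25, Fbp1, Pgam1 and Ldhb had under 2 kb of exon. Among those with at least 5 kb, Hk1, Gpi1, Pfkl, Pfkp, Eno1, Pkm, Pgd and Tkt had this order, and Slc2a3 and Pfkfb2 had the reverse. The cause of the order was not tested. The summed level of the 42 genes was 14323, 11872, 15666 and 17738 CPM in EPZ011989 libraries 1 to 4, and 13035 to 15321 CPM with DMSO, so the EPZ011989 libraries lay on both sides of the DMSO range. Without EPZ011989 library 2, 18 genes were higher and 9 lower, where 19.7% and 15.9% of all genes were called. Without EPZ011989 library 4, 8 were higher and 5 lower, where 14.7% and 8.7% of all genes were called. Aldoa (log2 fold change -0.011), Eno1 (0.066), Pkm (0.077) and Taldo1 (0.105) did not pass without library 4, although they passed without library 2. Without EPZ011989 libraries 2 and 4 together, 10 were higher and 7 lower, where 16.3% and 11.4% of all genes were called. Slc2a1, Gpi1, Pfkp, Fbp2, Aldoa, Eno1, Pkm and Slc16a3 passed without library 2 but not without both (edgeR adjusted p = 0.0511 to 0.142). Pfkl (edgeR adjusted p = 0.0259) and Taldo1 (0.0276) were higher without both. Values without library 2 are given with the steps, mainly for genes whose call changed. Of those not given there, Pgk1 (-0.15 ± 0.06, edgeR adjusted p = 0.0958) and Ldhb (0.22 ± 0.09, 0.0776) did not pass in that fit.

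**Figure D2:**
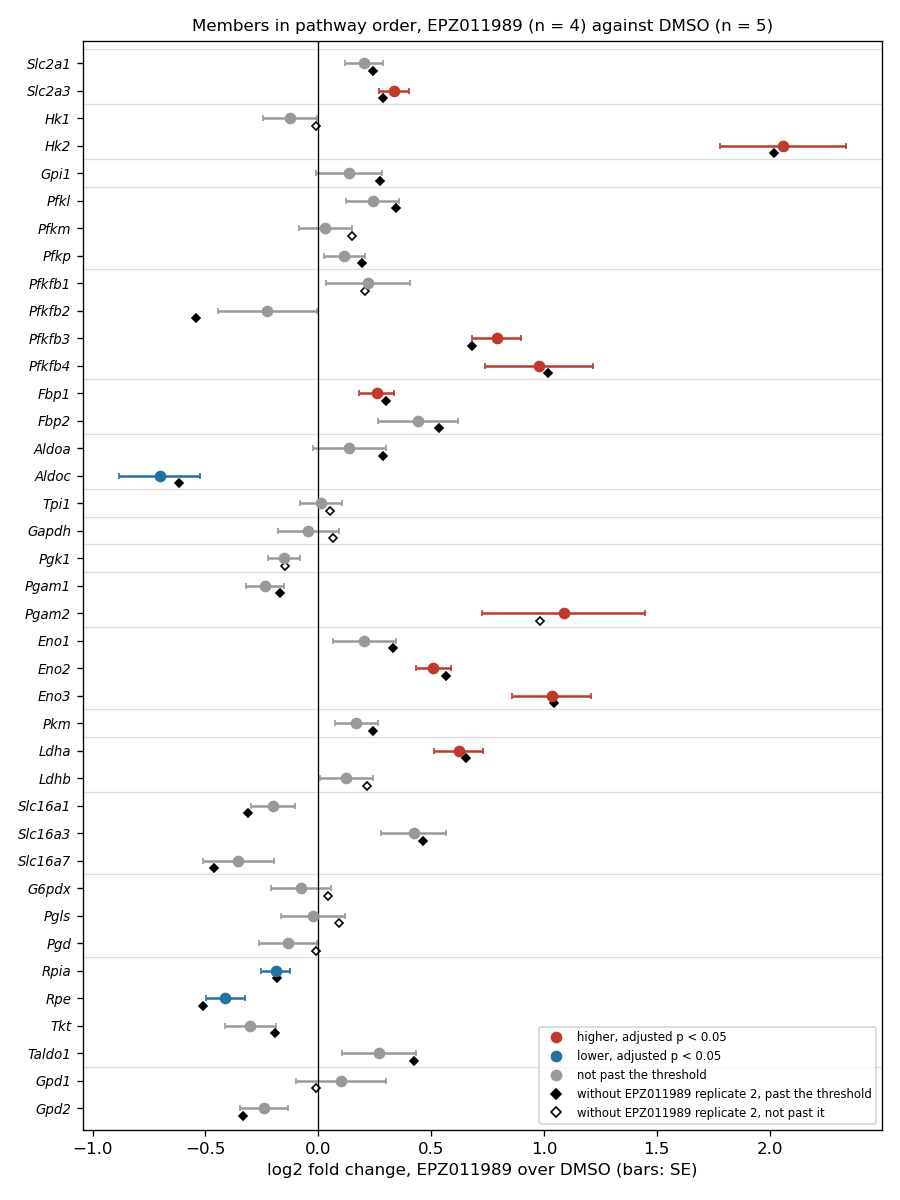
Log2 fold change, EPZ011989 over DMSO, of 39 genes in pathway order, with SE bars and red, blue and grey circles for genes called higher, called lower and not called. Diamonds give the fit without EPZ011989 library 2, filled where past the threshold, and Slc2a4 and Pklr (wide errors) and Hk3 (not tested) are left out; Hk2 lies farthest to the right at 2.06 and Aldoc farthest to the left at -0.70.

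**Figure D3:**
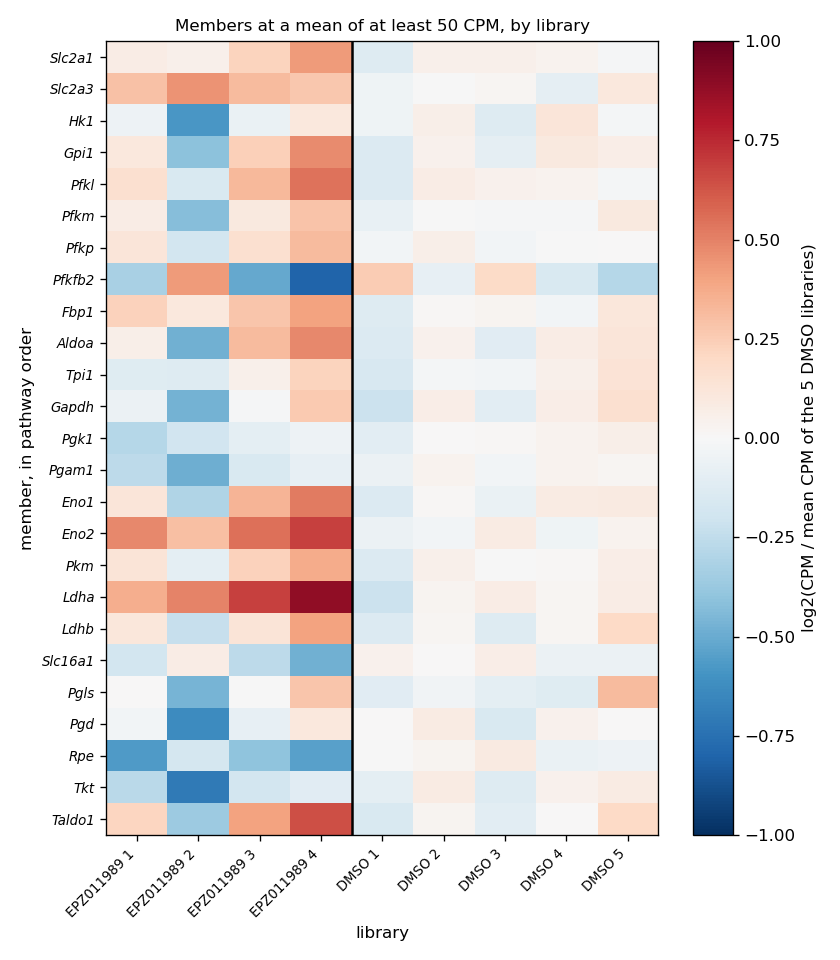
Log2 of the CPM in each library over the mean CPM of the 5 DMSO libraries for the 25 genes that averaged 50 CPM or more, red where higher and blue where lower. Among the EPZ011989 libraries, library 2 is the lowest and library 4 the highest in 19 of the 25 rows. Slc2a1, Slc2a3, Fbp1, Eno2 and Ldha are above the DMSO mean in all 4 EPZ011989 libraries, and Pgk1, Pgam1, Rpe and Tkt are below it in all 4.

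Glucose enters through facilitative transporters of the SLC2A (GLUT) family. Slc2a3, which encodes the high-affinity transporter GLUT3, had 88.6, 98.8, 90.2 and 87.3 CPM with EPZ011989, against 70.2, 72.1, 73.5, 67.8 and 77.8 CPM with DMSO. Every EPZ011989 library lay above every DMSO library, and Slc2a3 rose by a log2 fold change of 0.34 ± 0.07 (SE; edgeR adjusted p = 0.00352). Slc2a1, which encodes the widespread transporter GLUT1, had 102, 100.3, 113 and 130.0 CPM with EPZ011989, against 88.4, 100.3, 99.99, 99.2 and 95.8 CPM with DMSO. The groups met at library 2 of each, and the log2 difference of 0.20 ± 0.09 did not pass (edgeR adjusted p = 0.114); it passed without EPZ011989 library 2 (0.24 ± 0.08, edgeR adjusted p = 0.0319) and with library size alone (0.0406). Slc2a4, the insulin-responsive transporter of muscle and fat, reached at most 0.618 CPM with EPZ011989 and 0.286 CPM with DMSO, where 3 of 5 libraries were at 0. Per kilobase of exon, Slc2a1 stayed the most abundant of the 3, with 71.3% ± 3.2 of their summed CPM per kb with EPZ011989 and 73.4% ± 1.4 with DMSO (SD, n = 4 and 5).

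Hexokinases trap glucose as glucose 6-phosphate. Hk2, which encodes the inducible hexokinase of muscle, fat and many tumours, had 2.20, 2.01, 1.67 and 1.67 CPM with EPZ011989, against 0.487, 0.648, 0.498, 0.338 and 0.286 CPM with DMSO. The lowest EPZ011989 library was above the highest DMSO library, and Hk2 rose by 2.06 ± 0.28 on the log2 scale (edgeR adjusted p = 0.000330), 4.19-fold between the means. Hk1, which encodes the constitutive hexokinase, had 314, 218, 311 and 351 CPM with EPZ011989, against 316, 338, 298, 353 and 321 CPM with DMSO. Library 2 alone lay below the DMSO range, and Hk1 did not pass (log2 fold change -0.13 ± 0.12, edgeR adjusted p = 0.523; -0.01 without library 2). In CPM per kb Hk1 held 99.0% ± 0.3 of the hexokinase signal with EPZ011989 and 99.8% ± 0.1 with DMSO, and Hk2 0.933% ± 0.28 with EPZ011989 and 0.199% ± 0.064 with DMSO. Hk3 failed the filter, with a highest value of 0.305 CPM with EPZ011989 and 0.0677 CPM with DMSO and 3 libraries at 0 in each group.

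Glucose-6-phosphate isomerase and the phosphofructokinases were abundant and did not pass. Gpi1 had 862, 602, 945 and 1108 CPM with EPZ011989 and 728 to 858 CPM with DMSO (log2 fold change 0.14 ± 0.15, edgeR adjusted p = 0.567). The liver-type phosphofructokinase gene Pfkl had 163, 131, 183 and 213 CPM with EPZ011989 and 133 to 154 CPM with DMSO (0.24 ± 0.12, edgeR adjusted p = 0.177). The platelet-type Pfkp had 380.3 to 539 CPM with EPZ011989 and 424 to 449.8 CPM with DMSO, and the muscle-type Pfkm 109.9 to 180.2 CPM with EPZ011989 and 140.3 to 158 CPM with DMSO. In all 4 genes EPZ011989 library 2 was below every DMSO library, and libraries 3 and 4 were above every DMSO library, though library 3 only just so for Pfkm. Without library 2, Gpi1 (0.27 ± 0.08, edgeR adjusted p = 0.0252), Pfkl (0.34 ± 0.08, 0.00771) and Pfkp (0.20 ± 0.05, 0.0172) were higher, and Pfkm did not pass (0.15 ± 0.06, 0.0802). Without library 4, none of the 4 passed, with log2 fold changes of -0.007 for Gpi1, 0.108 for Pfkl, 0.025 for Pfkp and -0.079 for Pfkm. Exons of Pfkp share 748 bases with those of Pitrm1 on the opposite strand, and the labels do not say whether reads were counted by strand.

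The PFKFB enzymes make and break fructose 2,6-bisphosphate, the activator of phosphofructokinase. Pfkfb3, whose product mostly makes it, had 17.6, 22.4, 18.6 and 16.0 CPM with EPZ011989, against 10.4, 10.4, 12.2, 11.1 and 10.0015 CPM with DMSO. The groups did not overlap, and Pfkfb3 rose by 0.79 ± 0.11 (edgeR adjusted p = 0.000389). Pfkfb4, a hypoxia-inducible member of the family, had 4.76, 3.76, 4.81 and 3.51 CPM with EPZ011989, against 2.98, 1.28, 1.76, 2.70 and 1.97 CPM with DMSO. All EPZ011989 libraries were again above all DMSO libraries, and Pfkfb4 rose by 0.98 ± 0.24 (edgeR adjusted p = 0.0120). Pfkfb2, the cardiac form, had 54.1, 91.1, 47.6 and 38.9 CPM with EPZ011989, against 80.8, 64.0, 77.4, 61.1 and 55.5 CPM with DMSO. Its EPZ011989 library 2 was the highest of all 9 and the other 3 lay below every DMSO library, so that it did not pass with all libraries (-0.23 ± 0.22, edgeR adjusted p = 0.527) and was lower without library 2 (-0.54 ± 0.14, 0.0122). Pfkfb1, the liver form, had 4.58 to 5.77 CPM with EPZ011989 and 3.36 to 6.19 CPM with DMSO (edgeR adjusted p = 0.462). In CPM per kb, Pfkfb2 held 62.2% ± 6.4 of the 4 genes with EPZ011989 and 75.8% ± 3.8 with DMSO, and Pfkfb3 20.2% ± 2.7 with EPZ011989 and 11.7% ± 1.2 with DMSO.

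Fructose bisphosphatase runs the phosphofructokinase step in the gluconeogenic direction. Fbp1, the liver form, had 64.1, 58.7, 66.1 and 72.2 CPM with EPZ011989, against 49.9, 55.0, 55.5, 53.4 and 59.0 CPM with DMSO. EPZ011989 library 2 lay just under DMSO library 5, and Fbp1 rose by 0.26 ± 0.08 (edgeR adjusted p = 0.0312). The call was lost when any 1 DMSO library, or EPZ011989 library 1, 3 or 4, was left out (edgeR adjusted p = 0.0510 to 0.123), and held without EPZ011989 library 2 (0.00543). Fbp2, the muscle form and its neighbour on chromosome 13, had 3.63 to 5.62 CPM with EPZ011989 and 3.04 to 4.17 CPM with DMSO (log2 fold change 0.44 ± 0.18, edgeR adjusted p = 0.1; 0.53 ± 0.17 and 0.0320 without EPZ011989 library 2).

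Aldolase splits fructose 1,6-bisphosphate into triose phosphates. Aldoc, the brain form, had 3.08, 2.63, 3.26 and 4.10 CPM with EPZ011989, against 4.82, 6.89, 4.15, 5.76 and 4.96 CPM with DMSO. The highest EPZ011989 library was just under the lowest DMSO library, and Aldoc fell by 0.70 ± 0.18 on the log2 scale (edgeR adjusted p = 0.0154). Aldoa, which held 99.8% ± 0.03 of aldolase CPM per kb with EPZ011989 and 99.6% ± 0.1 with DMSO, had 1332, 919.9, 1594 and 1786 CPM with EPZ011989 and 1165 to 1391 CPM with DMSO. Its EPZ011989 libraries lay on both sides of the DMSO range, and it did not pass (0.14 ± 0.16, edgeR adjusted p = 0.608) except without EPZ011989 library 2 (0.29 ± 0.09, 0.0314).

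The lower part of the pathway, from triose phosphate isomerase to phosphoglycerate mutase, was highly expressed in both groups. Gapdh was the most abundant of the 42 genes per kilobase, at 816 CPM per kb with EPZ011989 and 841 CPM per kb with DMSO, followed by Tpi1 at 552 CPM per kb with EPZ011989 and 547 CPM per kb with DMSO. Gapdh had 2511 to 4167 CPM with EPZ011989 and 2995 to 3880.3 CPM with DMSO, and the sign of its log2 difference (-0.04 ± 0.14, edgeR adjusted p = 0.864) turned with upper-quartile factors (0.01) and without EPZ011989 library 2 (0.07). Tpi1 had 1375 to 1758 CPM with EPZ011989 and 1352 to 1657 CPM with DMSO (0.01 ± 0.09, edgeR adjusted p = 0.946). Pgk1, the first ATP-forming enzyme of glycolysis, had 878 to 1035 CPM with EPZ011989 and 993 to 1112 CPM with DMSO (-0.15 ± 0.07, edgeR adjusted p = 0.150). None of these 3 passed, and Pgk1 was lower with the length trend removed (edgeR adjusted p = 0.0333). Pgam1, the widespread phosphoglycerate mutase, had 656, 559.5, 706 and 743 CPM with EPZ011989, against 752, 803, 768, 806 and 793 CPM with DMSO. The groups did not overlap, but the difference of -0.24 ± 0.08 did not pass (edgeR adjusted p = 0.0650); it passed without EPZ011989 library 2 (0.0326), without library 4 (0.0368), by DESeq2 (0.0284) and limma-voom (0.0483), and with the length trend removed (edgeR, 0.00441). Pgam2, the muscle form, had 0.729, 0.859, 0.818 and 0.463 CPM with EPZ011989, against 0.379, 0.383, 0.429, 0.203 and 0.286 CPM with DMSO. The lowest EPZ011989 library was just above the highest DMSO library, and Pgam2 rose by 1.09 ± 0.36 (edgeR adjusted p = 0.0495). Its call was lost when any 1 library other than EPZ011989 library 4 was left out (edgeR adjusted p = 0.0631 to 0.125), and also with RLE factors (0.0536), with no filter (0.0655) and with the length trend removed (0.0723).

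Of the 3 enolase genes, which make phosphoenolpyruvate, 2 rose. Eno2, the neuronal and endocrine form known as gamma enolase, had 289, 255, 302 and 332 CPM with EPZ011989, against 199, 203, 219, 201 and 213 CPM with DMSO. All 4 EPZ011989 libraries were above all 5 DMSO libraries, and Eno2 rose by 0.51 ± 0.08 (edgeR adjusted p = 0.000755). Eno3, the muscle form, had 3.45, 3.05, 2.89 and 3.30 CPM with EPZ011989, against 1.87, 1.40, 1.85, 1.28 and 1.33 CPM with DMSO. The groups were again apart, and Eno3 rose by 1.03 ± 0.17 (edgeR adjusted p = 0.00134). Eno1, the widespread alpha enolase, had 1446, 1079, 1684 and 1906 CPM with EPZ011989, against 1207 to 1414 CPM with DMSO, and did not pass (0.20 ± 0.14, edgeR adjusted p = 0.347) except without EPZ011989 library 2 (0.33 ± 0.09, 0.0118). Eno1 shares near-identical sequence with Gm5506, whose counts came to 10.1% of those of Eno1, so the split of reads between them is uncertain. Eno1 made up 81.2% ± 2.2 of enolase CPM per kb with EPZ011989 and 84.6% ± 1.0 with DMSO, and Eno2 18.3% ± 2.1 with EPZ011989 and 15.1% ± 1.0 with DMSO. Eno2, Tpi1 and Gapdh lie within 1 stretch of chromosome 6 (124760053 to 125166467, GRCm38), and of the 3 Eno2 passed the test.

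Pyruvate kinase was represented by Pkm, whose 2 splice forms gene counts cannot separate. Pkm had 1227, 1051, 1321 and 1456 CPM with EPZ011989 and 1024 to 1179 CPM with DMSO (0.17 ± 0.09, edgeR adjusted p = 0.239; 0.24 ± 0.07 and 0.0166 without EPZ011989 library 2). Pklr, the liver and red cell form that beta cells also use, reached at most 0.318 CPM in either group. Its exons share 711 bases with the more abundant Hcn3 on the opposite strand.

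Lactate dehydrogenase gave the largest difference in CPM among the genes that passed. Ldha (chromosome 7, 46841475 to 46855627, GRCm38), which encodes the subunit that favours lactate formation, had 508, 556, 633 and 731 CPM with EPZ011989, against 340.4, 401, 415, 400.0 and 416 CPM with DMSO. Every EPZ011989 library lay above every DMSO library, and library 2 did not stand low among them. Ldha rose by 0.62 ± 0.11 (edgeR adjusted p = 0.00159), 1.54-fold between the means of 607 ± 97 CPM with EPZ011989 and 395 ± 31 CPM with DMSO (SD, n = 4 and 5). Ldhb, the subunit typical of heart, had 184, 146, 186 and 226 CPM with EPZ011989, against 155, 172, 156, 173 and 196 CPM with DMSO. The groups overlapped, and Ldhb did not pass (0.12 ± 0.12, edgeR adjusted p = 0.520). Ldha made up 60.8% ± 3.2 of their summed CPM per kb with EPZ011989 and 52.4% ± 2.1 with DMSO, with no overlap between the groups. The 13 annotated copies of Ldha and the 1 of Ldhb have no counts in the table.

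The monocarboxylate transporters carry lactate and pyruvate with a proton. Slc16a1, which encodes the widespread MCT1, had 109, 131, 104 and 89.0 CPM with EPZ011989, against 128, 125, 130.0, 119.5 and 119 CPM with DMSO. EPZ011989 library 2 was the highest of all 9 and the other 3 lay below every DMSO library; Slc16a1 did not pass (-0.20 ± 0.10, edgeR adjusted p = 0.177) and was lower without library 2 (-0.31 ± 0.07, 0.00634). Slc16a3, the lactate exporter MCT4 of glycolytic tissues, had 5.96, 5.50, 5.96 and 7.05 CPM with EPZ011989, against 4.51, 4.01, 4.78, 3.78 and 5.74 CPM with DMSO. Only DMSO library 5 reached into the EPZ011989 range, and the difference of 0.42 ± 0.14 lay just short of the threshold (edgeR adjusted p = 0.0538); it passed without DMSO library 5 (0.0251), without EPZ011989 library 2 (0.0338), with upper-quartile factors (0.0382), with library size alone (0.0292), by DESeq2 (0.0417) and by limma-voom (0.0433). Slc16a7, the high-affinity MCT2, had 3.03 to 4.98 CPM with EPZ011989 and 4.73 to 6.17 CPM with DMSO (-0.35 ± 0.16, edgeR adjusted p = 0.132; -0.46 ± 0.16 and 0.0402 without EPZ011989 library 2). Slc16a1 held 94.1% ± 1.3 of the CPM per kb of the 3 with EPZ011989 and 95.6% ± 0.6 with DMSO.

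None of the 3 genes of the oxidative pentose phosphate arm passed. G6pdx, the X-linked glucose-6-phosphate dehydrogenase that sets the rate of the arm, had 37.7, 27.2, 40.3 and 43.7 CPM with EPZ011989 and 34.7 to 44.0 CPM with DMSO (-0.08 ± 0.13, edgeR adjusted p = 0.747). Pgls, the lactonase, had 77.8 to 130.0 CPM with EPZ011989 and 98.6 to 133 CPM with DMSO (-0.02 ± 0.14, edgeR adjusted p = 0.936). Pgd, the second NADPH-forming enzyme, had 52.5 to 87.3 CPM with EPZ011989 and 73.2 to 86.0 CPM with DMSO (-0.13 ± 0.13, edgeR adjusted p = 0.514). In all 3, EPZ011989 library 2 lay below every DMSO library and the other 3 libraries lay within or near the DMSO range. The signs for G6pdx and Pgls turned without that library (0.04 and 0.09), and that for Pgls also with upper-quartile factors (0.03) and library size alone (0.02).

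In the non-oxidative arm 2 of 4 genes fell. Rpe, which encodes ribulose-phosphate 3-epimerase, had 56.0, 73.6, 63.0 and 57.0 CPM with EPZ011989, against 82.7, 84.7, 88.4, 79.4 and 80.1 CPM with DMSO. The highest EPZ011989 library was below the lowest DMSO library, and Rpe fell by 0.41 ± 0.09 on the log2 scale (edgeR adjusted p = 0.00533). Its exons share 558 bases with Kansl1l on the opposite strand, which averaged 1936 counts with EPZ011989 and 1785 with DMSO. Rpia, the ribose-5-phosphate isomerase, had 28.4, 28.4, 29.5 and 30.8 CPM with EPZ011989, against 34.5, 33.8, 33.5, 32.5 and 32.8 CPM with DMSO. The groups did not overlap, and Rpia fell by 0.19 ± 0.06 (edgeR adjusted p = 0.0495). That call was lost when any 1 DMSO library, or EPZ011989 library 1 or 3, was left out (edgeR adjusted p = 0.0600 to 0.106), and also with upper-quartile factors (0.169), library size alone (0.121) and no filter (0.0686). Tkt, the transketolase, had 127, 93.6, 135 and 141 CPM with EPZ011989 and 139.9 to 162 CPM with DMSO (-0.30 ± 0.11, edgeR adjusted p = 0.0791); it passed without EPZ011989 library 2 (0.0381), without library 4 (0.0493) and by DESeq2 (0.049). Taldo1, the transaldolase and the most abundant of the arm per kilobase, had 156, 104, 177 and 210.0 CPM with EPZ011989 and 121 to 154 CPM with DMSO (0.27 ± 0.17, edgeR adjusted p = 0.286), and passed without EPZ011989 library 2 (0.42 ± 0.10, 0.00647). Thus Rpe, Rpia and Tkt had negative and Taldo1 positive differences, and the 2 calls were both lower.

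The glycerol phosphate shuttle moves electrons from cytosolic NADH to the mitochondrion. Gpd1, its cytosolic enzyme, had 1.95 to 3.08 CPM with EPZ011989 and 1.81 to 2.77 CPM with DMSO (0.10 ± 0.20, edgeR adjusted p = 0.784). Gpd2, the mitochondrial enzyme, had 40.4, 46.4, 36.0 and 35.8 CPM with EPZ011989 and 40.5 to 54.7 CPM with DMSO (-0.24 ± 0.11, edgeR adjusted p = 0.129). It was lower without EPZ011989 library 2 (-0.33 ± 0.10, edgeR adjusted p = 0.0201) and with the length trend removed (0.0216).

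Ratios of paralogs that serve the same step do not depend on how libraries are scaled to each other. All 21 pairs of paralogs that both averaged 1 CPM or more were compared with an exact two-sided permutation test over the 9 libraries, adjusted over the 21 pairs, and 9 passed. Each of the 9 had no overlap between groups and the smallest p the test can give (exact p = 0.0159, adjusted 0.0370). Since at least 7 pairs must reach that p for any to pass, the 9 stand or fall together. Of the log2 ratios of every pair among all tested genes at the same minimum, 27.9% had groups that did not overlap; such pairs share genes and are not independent. The log2 ratio of Ldha to Ldhb was 1.71 ± 0.20 with EPZ011989 and 1.21 ± 0.12 with DMSO (SD, n = 4 and 5), a shift of 0.50. The log2 ratio of Hk1 to Hk2 was 7.22 ± 0.42 with EPZ011989 and 9.24 ± 0.41 with DMSO, and that of Pfkfb2 to Pfkfb3 was 1.56 ± 0.33 with EPZ011989 and 2.63 ± 0.20 with DMSO. In each of these 3 pairs the balance moved towards the paralog that rose. Hk2 averaged 0.451 CPM with DMSO and 1.89 CPM with EPZ011989, so its pair met the minimum only through the EPZ011989 libraries and is given as a description; without it, 8 of 20 pairs passed (chosen after seeing the data). The ratio of Aldoa to Aldoc shifted by 0.78, of Slc16a3 to Slc16a7 by 0.79 and of Pfkl to Pfkm by 0.21. The ratios of Eno1 to Eno2, Eno1 to Eno3 and Eno2 to Eno3 shifted by -0.33, -0.83 and -0.50. With a pseudocount of 1 CPM in place of 0.1 CPM, the shifts of Eno1 to Eno3 (-0.54) and Eno2 to Eno3 (-0.21) no longer passed and their groups overlapped, and that of Hk1 to Hk2 was -1.14. In the pairs Slc16a3 and Slc16a7 and Pfkl and Pfkm neither gene passed on its own. With the length trend of each library removed, none of the 21 passed and 5 of the 9 kept groups without overlap (Hk1 to Hk2, Pfkfb2 to Pfkfb3, Aldoa to Aldoc, Ldha to Ldhb and Slc16a3 to Slc16a7). With any 1 library left out the smallest adjusted p also missed the threshold, and the groups stayed apart for all 9 pairs in each case. Fewer splits exist in those fits, so the smallest exact p the test can give rose to 0.0286 or 0.0357.

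**Figure D4:**
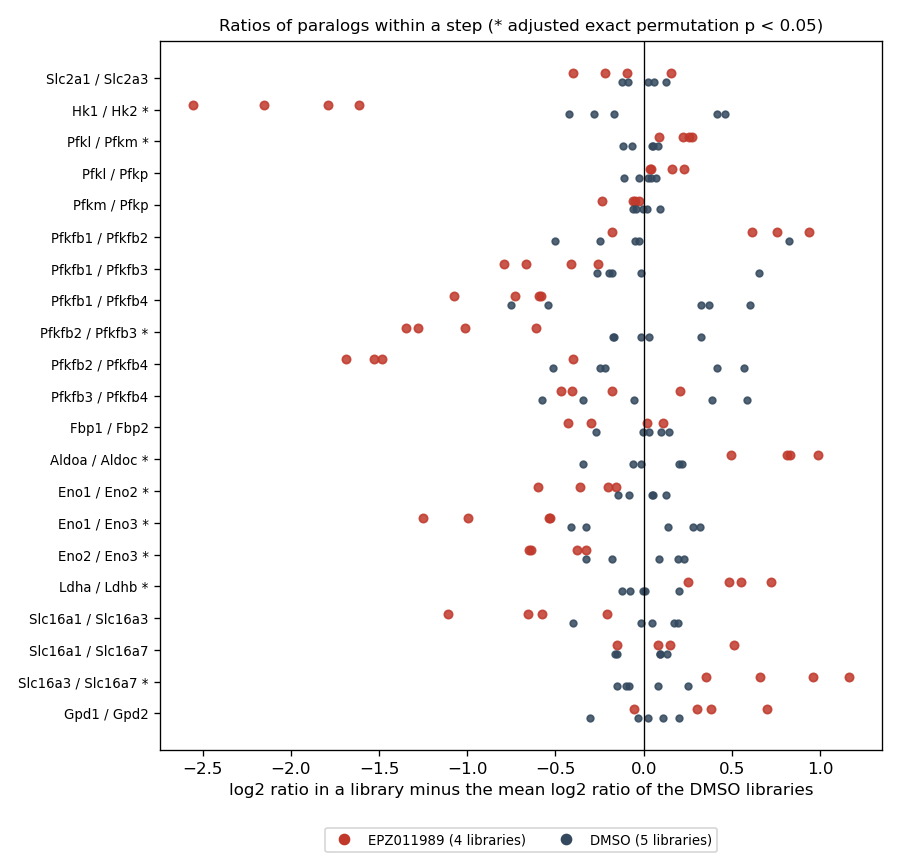
Log2 ratio of each of 21 paralog pairs in each library, minus the mean log2 ratio of the DMSO libraries, for EPZ011989 (4 red points) and DMSO (5 dark points). Pairs marked with an asterisk passed the exact permutation test after adjustment; Hk1 to Hk2 met the minimum level only through the EPZ011989 libraries, and of the others that passed Pfkfb2 to Pfkfb3 shifted most, by -1.06.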

How the data were processed

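Poly-A RNA from 4 EPZ011989 and 5 DMSO libraries was analysed. The authors deposited a count per gene and library, and a table of normalized signal in which each value is the count divided by 1 factor per library (checked in 100% of 20590 rows matched by symbol). Per the submitters' processing notes, HISAT2, StringTie, DESeq2 and the build mm10 were used, with no roles or versions given. Low counts had a local peak at 4 and 5 (3046 and 2732 values, against 2160 at 3 and 1313 at 6). A count may therefore not be a single fragment, and the floor was set at 12 counts per library (0.158 to 0.203 CPM), which covers counting error only.

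After filterByExpr and TMM scaling, genes were tested by the robust quasi-likelihood F test (edgeR 4.0.16, R 4.3.3) with treatment as the only term. P-values are two-sided, adjusted by Benjamini-Hochberg over all 14754 genes tested. The SE was derived as the absolute log2 fold change over the square root of its F statistic. Paralog ratios used log2(CPM + 0.1) and exact permutation tests (scipy 1.17.1). CPM per kb used all annotated exon bases (GENCODE M21, GRCm38, the same assembly as mm10). This length can exceed that of the expressed transcript (3.31 kb for Ldha and 1.57 kb for Ldhb were used), so shares of paralogs and ranks per kilobase depend on it. Near-identical copies were found with blastn 2.17.0 (at least 90% over 300 bases). The fit was tested on simulated data. The lowest chi-square per degree of freedom between replicates was 4.03 (counts divided by 4), so no library was a duplicate. Replicate numbers were not treated as pairs.

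The members and all lists were chosen with earlier results of these data known. All 42 members were named, and from each other list up to 4 called genes by smallest p. Some genes that this rule takes are not reported here. As alternatives, the counts were fitted with upper-quartile factors, RLE factors or no factors, without a filter or with a filter of 1 CPM in 4 libraries, after division by 4, with a loess trend on exon length removed, with a replicate block, and without single libraries or EPZ011989 libraries 2 and 4. Other tests were limma-voom (limma 3.58.1), DESeq2 1.42.0, and limma on the log2 of the normalized values with pseudocounts of 1 and 10.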

Additional observations from a re-analysis of the deposited data

Results flagged for a closer look

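Of 82 groups of values of the 41 tested genes, 3 held a library that stood apart from the rest of its group, where chance gives about 1 in 20. Pklr was at 0.318 CPM in EPZ011989 library 1, with the nearest other EPZ011989 library at 0.0528 CPM. Ldha was at 340.4 CPM in DMSO library 1, with the nearest other DMSO library at 400.0 CPM. Pgls was at 133.5 CPM in DMSO library 5, with the nearest other DMSO library at 105 CPM.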

How the results depend on the processing

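Of the 12 genes called, 8 (Slc2a3, Hk2, Pfkfb3, Pfkfb4, Eno2, Eno3, Ldha and Rpe) were called in the same direction under all 22 alternatives, and Fbp1, Aldoc, Pgam2 and Rpia lost the call under some. Of the 29 not called, 12 were never called and 10 changed sign under some alternative. Leaving out 1 library in turn gave 7 to 18 genes of the set higher and 2 to 9 lower, and 1861 to 2939 higher and 781 to 2377 lower among all genes; the extremes of 18 and 9, and of 2939 and 2377, came without EPZ011989 replicate 2, 781 came without replicate 3, and without replicate 4 there were 5 lower in the set (8.7% of all genes). In the set, 10 were higher and 7 lower without EPZ011989 replicates 2 and 4 together (16.3% and 11.4% of all genes). The set had 5 lower by DESeq2 (8.74% of all genes) and 6 with the length trend removed (12.7%, or 1851 genes). Upper-quartile factors gave 776 of all genes lower and 2735 higher, in place of 1174 and 2388.

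Same-numbered replicates did not deviate together (r = 0.01, -0.10, -0.04 and 0.03), so the numbers were not taken as pairs. With the replicate number as a block, 1550 of all genes were higher (10.5%) and 471 lower (3.19%), 1 gene of the set was lower and 7 higher, Aldoc had an adjusted p of 0.068 (edgeR), and no paralog ratio passed, since 4 pairs cannot give an exact p under 0.125. Of the paralog ratios, 8 passed at a pseudocount of 1 CPM, 10 of 22 at a mean of at least 0.5 CPM, 4 of 8 at a mean of at least 5 CPM, 8 of 20 without the pair Hk1 to Hk2, 9 with the normalized table, 0 with the length trend removed (10 with an unadjusted exact p under 0.05) and 0 with any 1 library left out. The 10 include Hk1 to Hk2 and Pgam1 to Pgam2, which are given as a description. Hk2 (0.451 CPM with DMSO, 1.89 CPM with EPZ011989) and Pgam2 (0.336 and 0.717 CPM) met 0.5 CPM only through the EPZ011989 libraries. The cause of these changes was not tested.

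None of the genes whose log2 fold change turned sign was called with all 9 libraries, and none was called where the sign had turned. That of Pfkm was -0.003 by limma on log2(value + 1) and on log2(value + 10), that of Tpi1 -0.004 with both and with RLE factors, -0.021 with the length trend removed and -0.032 without replicates 2 and 4, that of Gapdh 0.010 with upper-quartile factors, and that of Pgls 0.032 with those, 0.021 with library size alone and 0.046 with the block. Without replicates 2 and 4 Pklr was at 0.549 and Gpd1 at -0.189. Leaving out 1 library gave -0.007 to 0.274 for Gpi1, -0.079 to 0.150 for Pfkm, -0.011 to 0.288 for Aldoa, -0.082 to 0.051 for Tpi1, -0.178 to 0.066 for Gapdh, -0.001 to 0.216 for Ldhb, -0.177 to 0.041 for G6pdx, -0.153 to 0.092 for Pgls and -0.010 to 0.181 for Gpd1. Below about 1 CPM, depth limits what can be seen for Slc2a4, Hk3, Pklr and Pgam2. This limit also covers Hk2 with DMSO, at 20 to 44 counts per library (0.286 to 0.648 CPM), so its fold change rests on low DMSO counts.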

Other observations

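Other genes of sugar metabolism, from lists set beside the 42 genes, are described by counts, where 16.2% of all genes were higher and 7.96% lower. Of 24 tested other genes of glycolysis and sugar entry (33 listed), 7 were higher and 2 lower. Khk, which phosphorylates fructose, was at 9.23 ± 1.22 CPM with EPZ011989 and 4.09 ± 0.74 CPM with DMSO (SD, n = 4 and 5; edgeR adjusted p = 0.000277). Pgm2l1, which makes glucose 1,6-bisphosphate, was at 22.3 ± 7.7 CPM with EPZ011989 and 7.07 ± 1.52 CPM with DMSO (edgeR adjusted p = 0.000310), and Bpgm, which makes 2,3-bisphosphoglycerate, at 44.1 ± 3.5 CPM with EPZ011989 and 32.3 ± 3.4 CPM with DMSO. Pgm1, of the phosphoglucomutase family, fell to 40.1 ± 1.1 CPM with EPZ011989, against 53.4 ± 3.3 CPM with DMSO.

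Of 16 tested other lactate, pentose phosphate and glycerol phosphate genes (22 listed), 2 were higher and 2 lower. Ldhd, the D-lactate dehydrogenase, fell to 5.86 ± 1.44 CPM with EPZ011989, against 10.2 ± 0.6 CPM with DMSO (edgeR adjusted p = 0.00296), and Shpk, the sedoheptulokinase, to 6.81 ± 0.59 CPM with EPZ011989, against 9.26 ± 0.93 CPM with DMSO. Emb, a chaperone of monocarboxylate transporters, was at 380.3 ± 8.9 CPM with EPZ011989 and 334 ± 7 CPM with DMSO, and Lhpp at 5.02 ± 1.09 CPM with EPZ011989 and 1.38 ± 0.63 CPM with DMSO. Of 24 regulators tested, 5 were higher and 3 lower. Egln3, an oxygen-sensing prolyl hydroxylase that HIF itself induces, was at 5.44 ± 0.71 CPM with EPZ011989 and 0.936 ± 0.327 CPM with DMSO (edgeR adjusted p = 3.74e-05). The MYC family gene Myc was at 3.23 ± 0.99 CPM with EPZ011989 and 1.21 ± 0.15 CPM with DMSO, and Mycn at 8.91 ± 0.93 CPM with EPZ011989 and 5.13 ± 0.73 CPM with DMSO. Mlxipl, which encodes the glucose-responsive factor ChREBP, was at 2.13 ± 0.43 CPM with EPZ011989 and 0.524 ± 0.258 CPM with DMSO. Of 15 tested glycogen and hexosamine genes (19 listed), 5 were higher and 1 lower. Ugp2, which makes UDP-glucose, was at 82.5 ± 3.8 CPM with EPZ011989 and 55.4 ± 4.1 CPM with DMSO (edgeR adjusted p = 0.000200). Uap1, of hexosamine synthesis, was at 105.3 ± 7.8 CPM with EPZ011989 and 84.1 ± 2.4 CPM with DMSO, and the glycogen branching enzyme gene Gbe1 at 13.5 ± 1.0 CPM with EPZ011989 and 9.99 ± 0.76 CPM with DMSO. Ppp1r3d, a glycogen-targeting phosphatase subunit, was at 5.89 ± 0.44 CPM with EPZ011989 and 3.74 ± 0.54 CPM with DMSO. Of 15 NADPH and redox genes tested, 1 was higher and 2 lower. Idh1, the cytosolic NADP-dependent isocitrate dehydrogenase, was at 76.2 ± 10.3 CPM with EPZ011989 and 62.2 ± 1.6 CPM with DMSO. Its mitochondrial counterpart Idh2 was at 347 ± 48 CPM with EPZ011989 and 440.5 ± 20.5 CPM with DMSO, and the glutathione synthesis gene Gclm at 91.3 ± 5.9 CPM with EPZ011989 and 106.9 ± 3.8 CPM with DMSO. The median log2 fold changes of the 5 lists, in the order given, were 0.03, 0.06, -0.08, 0.06 and -0.11, against 0.03 over all genes.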
